A study of Mus musculus with 14 samples.

Results

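The aquaporins are a family of small membrane channels, and 8 of them, Aqp1, Aqp3, Aqp4, Aqp5, Aqp7, Aqp8, Aqp9 and Aqp11, were followed here among the 21853 genes of the expression table. They were picked by family name, though with earlier results of these data known, and all 8 were found once in the table. Each aquaporin passes water along an osmotic gradient. Aqp1, Aqp4, Aqp5 and Aqp8 are mainly water channels. Aqp3, Aqp7 and Aqp9 are aquaglyceroporins, which also pass glycerol, and Aqp11 is an unorthodox member that resides mostly inside the cell. Several members, Aqp3, Aqp8, Aqp9 and Aqp11 among them, also pass hydrogen peroxide. In the female tract, aquaporins are known for moving water into the uterine wall and lumen under ovarian steroids and for filling the follicle antrum, and in fat, Aqp7 is the channel through which adipocytes release glycerol.

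The RNA came from ovaries and uteri of 28-week-old female C57BL/6J mice. The old control (OC) group had 3 mice injected with saline, and the old treatment (OT) group had 4 mice injected with AMSC-CM, a concentrate of what mesenchymal stem cells of the human amniotic membrane secrete into their medium, mixed from several donors. Both were given into the tail vein at 1 µL per g of body weight in 6 injections 4 days apart. Every mouse, OC and OT alike, had first received 10 IU of pregnant mare serum gonadotropin and, 48 h later, 10 IU of human chorionic gonadotropin. Each mouse gave 1 ovary library and 1 uterus library, 14 in all, so that both tissues of a mouse carry its name (OC1 to OC3, OT1 to OT4).

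Values are FPKM, sequenced fragments of a gene divided by its length and by the mapped total of the library, so that levels of different genes can be set side by side. The number of reads behind each value is unknown. Total FPKM per library lay between 374816 and 397644 in the ovaries and between 425875 and 577494 in the uteri, the highest being the OT1 uterus, where the 10 highest genes held 12.7% of the total against 9.5% to 10.7% in the other uteri. The tissue labels were checked with 8 markers each. The ovary markers, which include the steroidogenic enzyme Cyp11a1 and the inhibin subunit Inha, summed to between 3534 and 4555 FPKM in ovaries and between 7.89 and 23.3 FPKM in uteri. The uterus markers, which include the homeobox gene Hoxa10 and the smooth muscle myosin Myh11, summed to between 809.1 and 1464 FPKM in uteri and between 120.4 and 383.4 FPKM in ovaries. In a bulk sample, fewer cells of a type and less RNA per cell cannot be told apart.

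Upstream sequence is shown for Aqp3 and Aqp7, because these neighbours on chromosome 4, 44.6 kb apart and on the same strand, gave the largest differences between OC and OT uteri. The bases are RefSeq's for GRCm38.p6, 5′ to 3′ on the minus strand, and end just before the first base that RefSeq or GENCODE annotates as the gene. Capitals mark every match on either strand to 4 motifs. They are AGGTCA, the unit that nuclear hormone receptors bind singly or in pairs, the TATA box as TATAAA, the GC box as GGGCGG and the CCAAT box by its name.
Aqp3, chr4:41098184-41098433: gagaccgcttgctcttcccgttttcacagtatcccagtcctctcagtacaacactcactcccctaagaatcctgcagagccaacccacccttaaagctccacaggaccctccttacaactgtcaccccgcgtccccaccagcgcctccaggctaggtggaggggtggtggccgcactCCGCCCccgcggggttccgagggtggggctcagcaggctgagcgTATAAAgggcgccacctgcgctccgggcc
Aqp7, chr4:41048140-41048386: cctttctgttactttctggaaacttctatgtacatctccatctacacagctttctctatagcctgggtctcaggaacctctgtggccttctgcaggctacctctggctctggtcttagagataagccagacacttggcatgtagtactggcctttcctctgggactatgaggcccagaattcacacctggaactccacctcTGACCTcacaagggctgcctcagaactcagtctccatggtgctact
Aqp3 held a TATAAA 29 to 24 bases before its start and a GC box on the other strand at 73 to 68 bases, while Aqp7 held neither and had 1 receptor unit on the other strand, 46 to 41 bases before its start. No CCAAT box was in either window, and no pair of receptor units in direct repeat 1 base apart, or facing each other across 3 bases as in the estrogen response element, was found in them. Of 27025 RefSeq gene windows cut to 247 bases, 13.7% held a receptor unit, 12.9% a TATAAA, 32.9% a GC box and 34.2% a CCAAT box. Such matches describe letters only. RefSeq gave 2 start windows for Aqp7, of which the upstream one is shown.

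The levels separated the family into abundant and scarce members in both tissues. In the ovary, the medians over 7 libraries ran from Aqp1 (40.0 FPKM) through Aqp8 (16.3), Aqp5 (9.31), Aqp11 (1.82), Aqp4 (0.504), Aqp7 (0.479) and Aqp9 (0.245) to Aqp3 (0.101). In the uterus, they ran from Aqp1 (107.7 FPKM) through Aqp5 (43.5), Aqp8 (42.6), Aqp11 (3.12), Aqp7 (1.19), Aqp9 (0.360) and Aqp3 (0.331) to Aqp4 (0.0654). Aqp1 stood above its next member in 7 of 7 ovaries and in 5 of 7 uteri. None of the 14 steps between neighbours in these orders reached an adjusted p under 0.05 (exact sign-flip permutation test over 7 libraries, smallest adjusted p = 0.0729). The smallest unadjusted p that 7 libraries allow is 0.0156, so a step that held in 7 of 7 could not pass alone. In the ovary, Aqp1 over Aqp8, Aqp5 over Aqp11 and Aqp9 over Aqp3 held in 7 of 7. The steps least separated were Aqp8 to Aqp5 in the ovary (exact p = 0.531) and Aqp5 to Aqp8 in the uterus (exact p = 0.688), where the order held in 4 of 7 libraries each.

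Aqp1, Aqp5 and Aqp8 together therefore made up most of the family's signal. The 8 members summed to between 39.1 and 93.8 FPKM in ovaries and between 122.5 and 412.3 FPKM in uteri. Aqp1 alone held 51.1% to 80.2% of that sum in ovaries and 23.8% to 64.7% in uteri. The other mouse aquaporins of the table were low. Mip, the lens channel, was listed at 0 in all 14 libraries, Aqp6 was above 0 only in the OC1 ovary (0.126 FPKM), Aqp2 lay between 0 and 0.803 FPKM, and Aqp12 lay between 0 and 1.46 FPKM in ovaries and was listed at 0 in all 7 uteri.

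**Figure D1:**
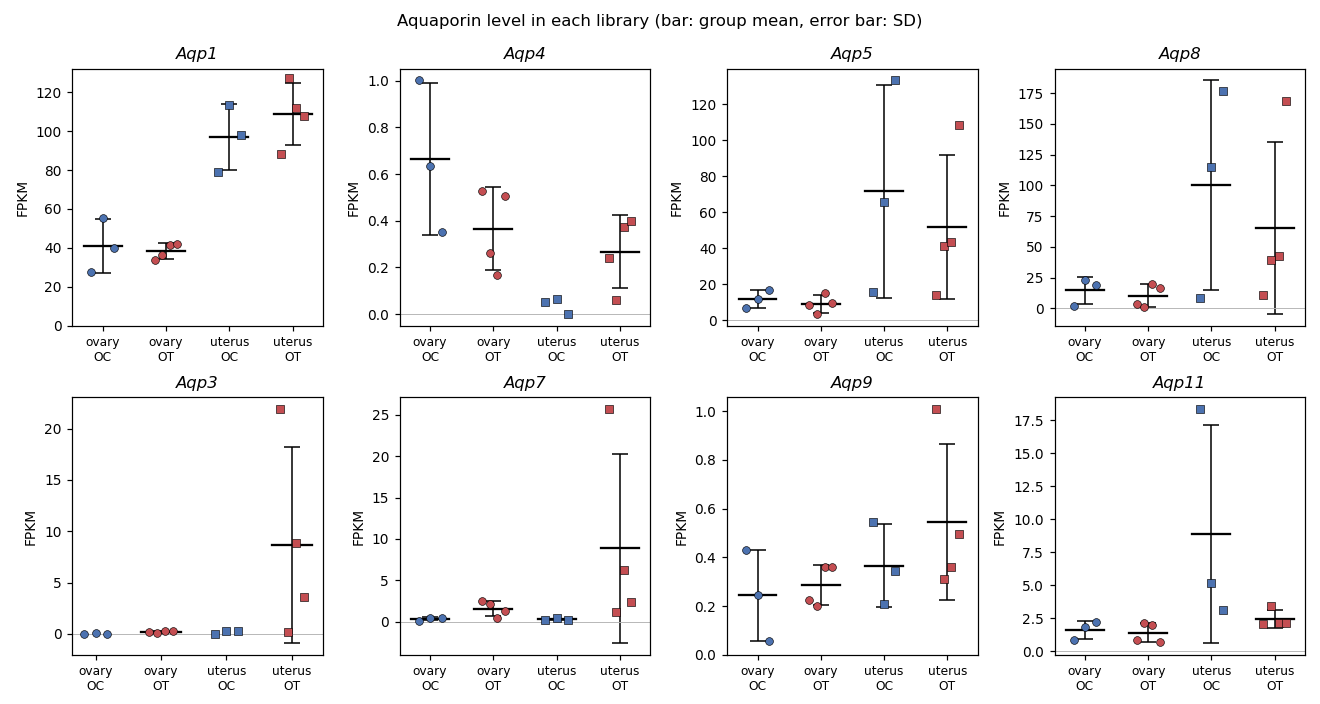
FPKM (linear axes) of each aquaporin in every library, with blue for OC, red for OT, circles for ovary and squares for uterus; the bar is the group mean and the error bar the SD, left out where a library of the group is listed at 0. Aqp7 in the 4 OT uteri lay between 1.19 and 25.7 FPKM, above all 3 OC uteri, while Aqp5 and Aqp8 spread widely in both groups.

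OC and OT were compared within each tissue on log2(FPKM + 0.1), a scale that understates the fold of genes near 0.1 FPKM. A gene was tested by limma in a tissue if it averaged 0.5 FPKM or more over its 7 libraries, and it was called if its fold was 2 or more with an unadjusted p of 0.05 or less. In the ovary, 5 of the 8 aquaporins were tested, 1 was called higher in OT (Aqp7) and 0 were called lower, against 0.368% of 14415 tested genes called higher and 0.0832% called lower. In the uterus, 6 were tested, 2 were called higher (Aqp7 and Aqp3) and 1 lower (Aqp11). Of 14151 genes tested there, 2.23% were called higher and 0.664% lower. Aqp7 in both tissues and Aqp3 in the uterus passed the filter only through their OT libraries, which favours a call higher. The counts of higher calls are therefore not a result about the family. No gene of either tissue had a limma adjusted p under 0.05 (0% of those tested), while 650 ovary and 1160 uterus genes had an unadjusted p under 0.05. Every call of OT against OC below is therefore one at the unadjusted cutoff. Counts of called genes in the lists below stand against the shares of all tested genes given above. The median log2 fold change was -0.24 over the 5 ovary members tested and -0.08 over the 6 uterus members, against -0.01 and 0.01 over all tested genes. The aquaporins did not move in one direction. The 8 uterus markers also differed between OC and OT uteri. For 4 of them every OT uterus lay below every OC uterus, against 5.48% of tested genes. Of the 8, 1 was called higher in OT and 0 lower. Their sum was 1066 to 1228 FPKM in OC uteri and 809.1 to 1464 FPKM in OT uteri. The part of this in the aquaporin values was not tested.

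**Figure D2:**
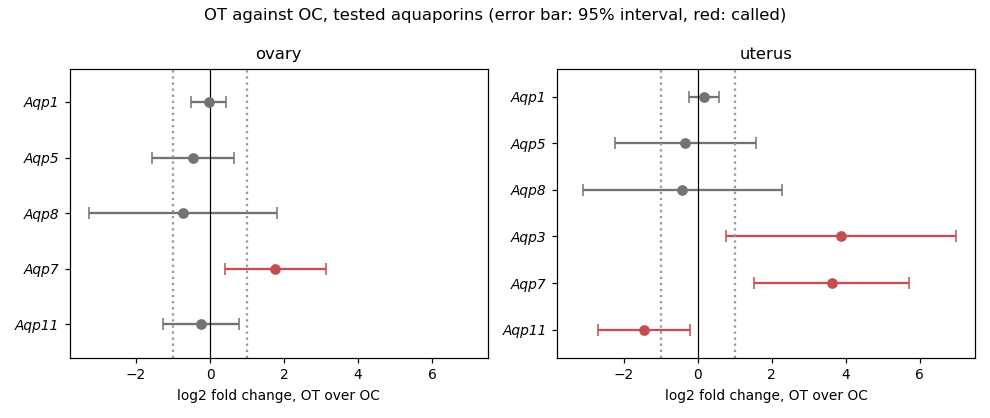
Log2 fold change of OT over OC for the tested aquaporins in ovary and uterus, on the log2(FPKM + 0.1) scale, with 95% intervals from limma; dotted lines mark a fold of 2 and red marks a called gene. Aqp7 lay above the fold of 2 in both tissues, and the intervals of Aqp5 and Aqp8 reached well to both sides of 0.

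Aqp7, the adipocyte glycerol channel (ENSMUSG00000028427, chromosome 4, 41033074 to 41048139, minus strand, GRCm38), was called higher in OT in both tissues. In OC uteri it measured 0.241, 0.396 and 0.237 FPKM, and in OT uteri 25.7, 1.19, 6.18 and 2.33 FPKM. All 4 OT uteri lay above all 3 OC uteri, and OT1 stood far above the rest. The log2 fold change was 3.62 (standard error 0.91, limma unadjusted p = 0.00404, adjusted p = 0.485). An exact two-sided permutation test gave p = 0.0571, the smallest that 3 against 4 libraries allow. Such a complete separation upward was seen for 6.45% of tested uterus genes. Without OT1, the log2 fold change was 2.81 and the call stood. Since the mean of the OC uteri was 0.291 FPKM, Aqp7 passed the 0.5 FPKM filter there only through the OT libraries.

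In OC ovaries Aqp7 measured 0.138, 0.439 and 0.479 FPKM, and in OT ovaries 2.46, 2.12, 0.420 and 1.31 FPKM. The groups overlapped, because OT3 lay within the OC range while the other 3 OT ovaries lay above it. Here too the mean of the OC group, 0.352 FPKM, was under the filter. The log2 fold change was 1.76 (standard error 0.60, limma unadjusted p = 0.0172, adjusted p = 0.997), with an exact permutation p of 0.171. The call was lost without OC1 (log2 fold change 1.35, unadjusted p = 0.0666) and in a fit of all 14 libraries (1.76, unadjusted p = 0.0537). The log2 fold change was 0.86 with a pseudocount of 1, under the 1 that a fold of 2 needs. Every OT ovary above every OC ovary was seen for 2.78% of tested genes and the opposite for 3.13%, and no aquaporin was among either.

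Markers of white adipocytes moved with Aqp7. Their 14 genes, which include the adipokine Adipoq, the fatty acid carrier Fabp4 and the lipid droplet coat Plin1, were all called higher in OT uteri, and 7 of 14 were called higher in OT ovaries. Over all tested genes, 2.23% were called higher in the uterus and 0.368% in the ovary. The median log2 fold change of the list was 3.69 in the uterus and 1.63 in the ovary, against 0.01 and -0.01 over all tested genes. Their summed level was 133.2 to 429.7 FPKM in OC uteri and 2007 to 17100 FPKM in OT uteri, with the highest value in OT1, as for Aqp7. In the ovary the sum was 310.9 to 478.3 FPKM in OC and 2789, 2023, 384.0 and 730.2 FPKM in OT1 to OT4, so that the OT3 ovary lay in the OC range for the markers as well as for Aqp7. None of the 14 markers was at 0 in any library. The part of adipocytes in the Aqp7 result was not tested. Of 8 brown adipocyte markers 0 were called higher and 1 lower (Dio2) in OT uteri, with sums of 37.7 to 49.8 FPKM in OC and 729.7, 21.8, 26.2 and 41.2 FPKM in OT1 to OT4. Among them Ucp1, the uncoupling protein of brown fat, was listed at 209.9 FPKM in the OT1 uterus, at 0.112 FPKM in the OT3 uterus and at 0 in the other 12 libraries.

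The genes of glycerol release and use, a list of 16 around lipolysis and glycerol phosphate, were all tested in both tissues. In the uterus 9 of 16 were called higher in OT and 0 lower, against 2.23% and 0.664% of tested genes (median log2 fold change 1.26). They were the lipases Pnpla2 (1.93), Lipe (2.09), Mgll (1.63) and Lpl (3.48), the lipase inhibitor G0s2 (2.08), the glycerol phosphate dehydrogenase Gpd1 (3.88), the acyltransferases Gpat3 (1.11) and Dgat1 (1.32), and Pck1 (3.43), which feeds glycerol synthesis in fat. Glycerol kinase, Gk, which makes free glycerol usable, differed by 0.58 and was not called. In the ovary 2 of 16 were called higher, Lpl (1.22) and Dgat2 (1.07), and 0 lower. The list's sum was 238.9 to 273.5 FPKM in OC uteri and 410.3 to 2618 FPKM in OT uteri, again highest in OT1. These genes are also active in adipocytes, whose markers are given above, and their part was not tested.

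Aqp3, an aquaglyceroporin known from the basal layers of skin, other stratified epithelia and the urothelium (ENSMUSG00000028435, chromosome 4, 41092722 to 41098183, minus strand), was near 0 in all ovaries. It was listed at 0, 0.101 and 0 FPKM in OC ovaries and measured 0.188, 0.0836, 0.239 and 0.308 FPKM in OT ovaries, too low to be tested. In OC uteri it was listed at 0, 0.318 and 0.331 FPKM, and in OT uteri it measured 21.9, 0.1999, 8.84 and 3.62 FPKM. Thus 3 of 4 OT uteri lay well above the OC range and OT2 lay within it. The log2 fold change was 3.88 (standard error 1.35, limma unadjusted p = 0.0208, adjusted p = 0.550), with an exact permutation p of 0.171. Like Aqp7, Aqp3 passed the filter only through the OT uteri. The call was lost without OC1 (unadjusted p = 0.0772) and without OT3 (unadjusted p = 0.0565), and in a fit of OC1 to OC3 with OT1 to OT3 blocked by replicate number (log2 fold change 3.89, unadjusted p = 0.0531). It stood without OT1, at 3.04, and without OT2, the one OT uterus in the OC range, at 5.10. With a pseudocount of 1 the log2 fold change was 2.30 and with 0.01 it was 5.07, so that its size depends on the pseudocount.

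Markers of stratified squamous epithelium were also higher in OT uteri, though not in the order of Aqp3. Of 13 such genes, 11 were tested in the uterus, and 9 were called higher in OT, among them the basal keratins Krt5 (6.22) and Krt14 (4.88), their regulator Trp63 (2.87), and Krt13 (5.30) of mucosal epithelia. The median log2 fold change was 4.88, against 0.01 over all tested uterus genes, of which 2.23% were called higher. Of the 11, 10 had every OT uterus above every OC uterus, against 6.45% of tested genes. As with Aqp3, 7 of the 11, Krt14 and Trp63 among them, averaged under 0.5 FPKM in OC uteri and so entered the test only through the OT uteri. The sum was 3.13 to 14.8 FPKM in OC uteri and 232.1, 50.9, 956.7 and 442.7 FPKM in OT1 to OT4. Thus OT2, the OT uterus with Aqp3 in the OC range, had the lowest OT sum, which still lay above the OC range. Aqp3 was highest in OT1, whereas the squamous sum was highest in OT3. Of the defining markers, Sprr3 was listed at 0 in all 14 libraries and Krtdap in 13. Urothelial markers, 7 genes, summed to 5.24 to 8.35 FPKM in OC uteri and to 198.6, 26.5, 6.52 and 5.99 FPKM in OT1 to OT4, and 2 of the 7, Psca and Grhl3, were called higher. The uroplakins Upk2 (16.2 FPKM) and Upk3a (48.7 FPKM) were high in the OT1 uterus, which also held the highest Aqp3, and were listed at 0 in the other OT uteri. In ovaries the squamous sum was 1.70 to 3.43 FPKM. The part of these epithelia in the Aqp3 result was not tested.

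**Figure D3:**
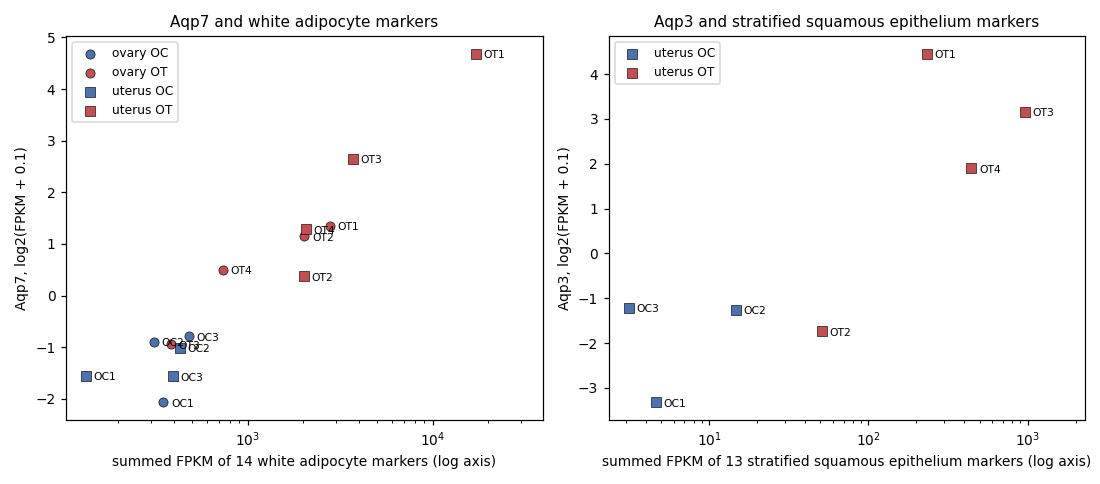
Left, Aqp7 on the log2(FPKM + 0.1) scale against the summed FPKM of 14 white adipocyte markers (log axis) in all 14 libraries; right, Aqp3 against the sum of 13 stratified squamous epithelium markers in the 7 uteri. Aqp7 was highest where the adipocyte sum was highest (OT1 uterus, 17100 FPKM), and the 3 uteri with Aqp3 above 3 FPKM had squamous sums from 232.1 to 956.7 FPKM.

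Aqp11, the intracellular member (ENSMUSG00000042797, chromosome 7, 97724006 to 97738289, minus strand), was called lower in OT uteri. It measured 18.3, 5.21 and 3.12 FPKM in OC uteri and 2.08, 3.43, 2.13 and 2.16 FPKM in OT uteri. OC1 stood far above all others, and OT2 lay above OC3, so the groups overlapped. The log2 fold change was -1.45 (standard error 0.54, limma unadjusted p = 0.0276, adjusted p = 0.563), with an exact permutation p of 0.114. The call depended on single libraries. It was lost without OC1 (log2 fold change -0.73, unadjusted p = 0.0616), OT1 (unadjusted p = 0.0534), OT3 (0.0601) or OT4 (0.0556), and under the replicate block (0.0539). Every OT uterus lay below every OC uterus for 5.48% of tested genes, Aqp11 not among them. In the ovary Aqp11 measured 0.906, 1.82 and 2.23 FPKM in OC and 0.854, 2.13, 2.00 and 0.745 FPKM in OT, overlapping groups with a log2 fold change of -0.24 (95% interval -1.27 to 0.78).

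The summed level of simple uterine epithelium markers was also highest in the OC1 uterus. Their 13 genes summed to 831.9 FPKM in OC1, to 583.7 and 590.1 FPKM in OC2 and OC3, and to between 237.9 and 586.6 FPKM in OT uteri. The tight junction gene Cldn3, the 1 gene of the list called lower in OT uteri (log2 fold change -1.23), measured 284.1 FPKM in OC1 against 125.8 to 137.1 FPKM in the other OC uteri and 28.4 to 127.3 FPKM in OT uteri. The transcription factor Sox17 measured 190.8 FPKM in OC1 against 56.4 and 43.8 FPKM in OC2 and OC3. The list did not act as one, because 6 of the 13, Epcam, Krt18, Krt7, Foxa2, Prss28 and Prss29, were lower in OC1 than in both other OC uteri. None of the 13 was called higher. Oviduct and ciliated cell markers, 7 genes, were highest in the OC1 uterus too. They summed to 172.1, 58.7 and 46.9 FPKM in OC1 to OC3 and to 7.22, 96.5, 28.4 and 38.8 FPKM in OT1 to OT4. Of 3 tested in the uterus, 0 were called. The part of uterine epithelium or of oviduct tissue in the Aqp11 result was not tested.

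Aqp5, a water channel of glands that is known in uterine epithelium (ENSMUSG00000044217, chromosome 15, 99590782 to 99594829, plus strand), did not separate OC from OT. It measured 15.4, 65.7 and 133.2 FPKM in OC uteri and 14.02, 40.9, 43.5 and 108.6 FPKM in OT uteri. In ovaries it measured 6.51, 11.9 and 16.5 FPKM in OC and 8.24, 3.28, 14.9 and 9.31 FPKM in OT. Each group held both low and high libraries, and the log2 fold changes were -0.34 in the uterus (95% interval -2.25 to 1.57) and -0.46 in the ovary (-1.57 to 0.64), so that sizable changes either way lie within these intervals.

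Aqp8, a channel for water, ammonia and hydrogen peroxide (ENSMUSG00000030762, chromosome 7, 123462291 to 123468004, plus strand), spread even more. It measured 8.70, 115.3 and 177.0 FPKM in OC uteri and 11.3, 39.5, 42.6 and 168.3 FPKM in OT uteri. In ovaries it measured 2.34, 23.1 and 18.7 FPKM in OC and 4.003, 0.964, 19.9 and 16.3 FPKM in OT. The highest library exceeded the lowest 20.3-fold in the uterus and 24.0-fold in the ovary, while OC and OT overlapped throughout. The log2 fold changes were -0.41 in the uterus (95% interval -3.09 to 2.27) and -0.73 in the ovary (-3.28 to 1.81).

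Aqp5 and Aqp8 rose and fell together from library to library. Over the 7 uteri, log2 values of both gave Pearson's r = 0.986 (adjusted permutation p = 0.0198 over 25 pairs of members) and Spearman's rho = 0.964 (adjusted p = 0.0347). Without the 2 uteri farthest from the median of Aqp5, r was 0.990. Over the 7 ovaries, r was 0.925 (adjusted permutation p = 0.0198) and rho was 0.857 (adjusted p = 0.198), and r was 0.879 without the 2 farthest. Aqp8 was low in OC1 and OT1 of both tissues and lowest in the OT2 ovary, where Aqp5 was lowest as well. As a description with no test, Aqp8 was the gene most like Aqp5 and Aqp5 the gene most like Aqp8 among 13652 genes tested in both tissues, by the smaller of the ovary and uterus r over 7 libraries each. The next were Foxc1 and Spint1 for Aqp5 (smaller r 0.913 and 0.891) and Atg9b and Spink1 for Aqp8 (0.925 and 0.923). The points share their library, so that tissue makeup and handling are common to both genes. The ratio of Aqp8 to Aqp5 was not constant, from 0.294 in the OT2 ovary to 1.94 in the OC2 ovary.

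Uterus markers moved with Aqp8 in the ovary libraries. The 3 ovaries with Aqp8 of 4.003 FPKM or less, OC1, OT1 and OT2, had summed uterus markers of 164.4, 120.4 and 220.5 FPKM, and the other 4, OC2, OC3, OT3 and OT4, had 383.4, 252.0, 313.0 and 280.8 FPKM. Hoxa10, which patterns the uterus, measured 3.92, 0.572 and 6.09 FPKM in the former and 53.4, 27.7, 48.9 and 23.4 FPKM in the latter. The serine proteases Prss28 and Prss29 of uterine glands, which are in the simple uterine epithelium list, showed the same split, Prss29 measuring 0.850, 0.540 and 0.960 FPKM in the former and 15.4, 12.01, 22.1 and 5.23 FPKM in the latter. These 2 were picked after their values were seen, and the list as a whole did not split so, with sums of 212.9, 146.7 and 205.3 FPKM in the former and 316.8, 206.0, 238.6 and 257.0 FPKM in the latter. Of the 8 uterus markers, Hoxa13 alone was listed at 0 in all 7 ovaries. No gene of either list was called between OC and OT ovaries. The part of uterine tissue in the ovary values of Aqp8 was not tested.

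In the uteri, Prss29, picked from the simple uterine epithelium list after its values were seen, followed the order of Aqp8 in part. It measured 0.891, 51.5 and 97.9 FPKM in OC and 2.44, 1.15, 16.8 and 72.4 FPKM in OT. Prss29 was low in OC1 and OT1, where Aqp8 was lowest, and high in OC2, OC3 and OT4, where Aqp8 was highest. In OT2 it was low although Aqp8 measured 39.5 FPKM. The list as a whole did not follow Aqp8, as its sum was highest in OC1 (831.9 FPKM). The genes of steroid hormone response, 20 in all, gave 0 of 18 tested called in either tissue. Among them the receptors Esr1 and Pgr differed by -0.35 and -0.31 in the uterus, and complement C3 (0.63) and Clu (0.40), the 2 most abundant over all 14 libraries, did not pass either. Epithelial ion transport genes, which set the osmotic gradient that water follows, gave 0 of 14 called in the ovary and 0 of 17 in the uterus.

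**Figure D4:**
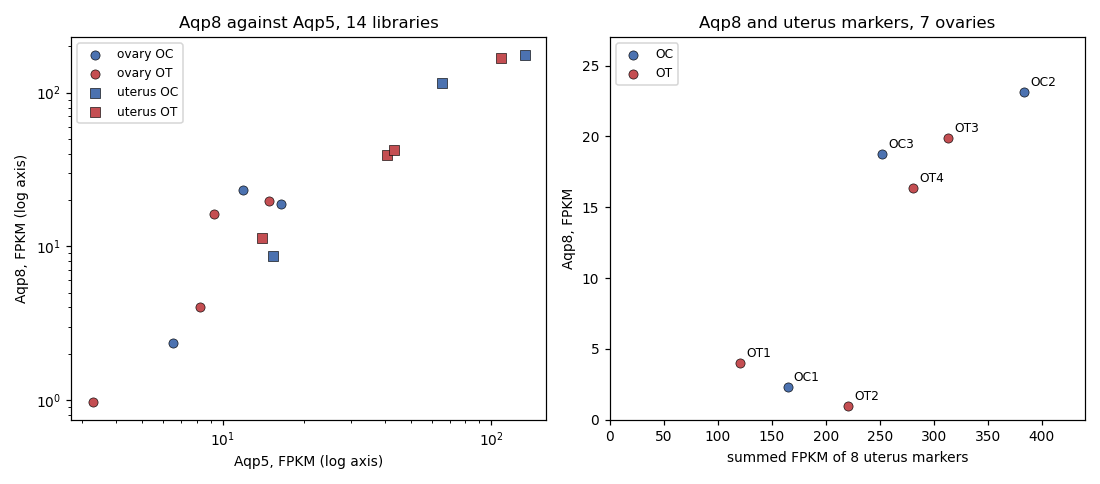
Left, Aqp8 against Aqp5 in FPKM on log axes for 14 libraries (circles ovary, squares uterus, blue OC, red OT); right, Aqp8 in FPKM against the summed FPKM of 8 uterus markers in the 7 ovaries, both on linear axes. Both genes rose together, from 3.28 and 0.964 FPKM in the OT2 ovary to 133.2 and 177.0 FPKM in the OC3 uterus, and the 4 ovaries with the highest uterus marker sums, 252.0 to 383.4 FPKM, were the 4 with the highest Aqp8.

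Aqp1, the water channel of endothelium and red blood cells (ENSMUSG00000004655, chromosome 6, 55336432 to 55348555, plus strand), was the most even member. It measured 27.7, 55.6 and 40.0 FPKM in OC ovaries and 33.9, 36.5, 41.7 and 42.2 FPKM in OT ovaries. It measured 79.2, 113.2 and 98.1 FPKM in OC uteri and 88.0, 127.1, 112.0 and 107.7 FPKM in OT uteri. The groups overlapped in both tissues, with log2 fold changes of -0.04 (95% interval -0.51 to 0.43) in the ovary and 0.17 (-0.23 to 0.57) in the uterus. A fold of 2 lies outside these intervals. Of 12 endothelial markers 0 were called in either tissue, with sums of 301.2 to 366.8 FPKM in ovaries and 177.4 to 324.6 FPKM in uteri, and of 8 red blood cell genes 0 of 5 tested were called in either. Entpd2, Pglyrp1 and Prap1 had the patterns most like that of Aqp1 (smaller r 0.888, 0.850 and 0.838).

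Aqp4 and Aqp9 were under the 0.5 FPKM filter in both tissues. Aqp4, the channel of astrocytes and muscle fibres (ENSMUSG00000024411), measured 1.00, 0.634 and 0.352 FPKM in OC ovaries and 0.530, 0.260, 0.169 and 0.504 FPKM in OT ovaries. In uteri it was listed at 0.0530, 0.0654 and 0 FPKM in OC and at 0.239, 0.0604, 0.375 and 0.398 FPKM in OT. Its highest value was thus the OC1 ovary, and its OT uteri reached higher than its OC uteri with OT2 within the OC range. With no filter, its log2 fold change was -0.71 in the ovary (unadjusted p = 0.140) and 1.305 in the uterus (unadjusted p = 0.0209, adjusted p = 0.598). Of the 9 genes that anchor Aqp4 at membranes, 8 were tested in each tissue and 1 was called, the syntrophin Sntb1 in the uterus (log2 fold change 1.304), while the dystrophin Dmd (0.15) and dystroglycan Dag1 (0.13) were not. Of 11 skeletal muscle markers 1 was called higher in OT uteri, Myl1 (2.95), and their sum was 88.9 to 143.1 FPKM in OC uteri and 107.3 to 199.9 FPKM in OT uteri, with Myh4 at 0 in all uteri.

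Aqp9, the glycerol channel of liver and leukocytes (ENSMUSG00000032204, chromosome 9, 71110659 to 71168682, minus strand), measured 0.429, 0.245 and 0.0568 FPKM in OC ovaries and 0.227, 0.202, 0.359 and 0.358 FPKM in OT ovaries. In uteri it measured 0.546, 0.208 and 0.344 FPKM in OC and 1.009, 0.310, 0.360 and 0.497 FPKM in OT. The groups overlapped in both tissues, with the highest value in the OT1 uterus. Neutrophil markers, 9 genes, were highest there too, at 42.6 FPKM against 5.70 to 21.6 FPKM in the other uteri, and 0 of 4 tested were called. Of 9 macrophage markers 1 was called higher in OT uteri, the scavenger receptor Cd163.

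The genes that make or remove hydrogen peroxide were set beside the members that pass it. Of 20 such genes, 0 of 18 tested were called in the ovary, and 2 of 19 were called higher in OT uteri, catalase (Cat, log2 fold change 1.33, unadjusted p = 0.0282) and the extracellular superoxide dismutase Sod3 (1.86, unadjusted p = 0.00256). Cat measured 31.2 to 34.95 FPKM in OC uteri and 239.8, 52.9, 76.4 and 51.0 FPKM in OT1 to OT4. Of the members named as passing hydrogen peroxide, Aqp3 and Aqp9 were also highest in the OT1 uterus. Aqp11 was lowest there (2.08 FPKM) and Aqp8 was low (11.3 FPKM). The white adipocyte sum was highest there too (17100 FPKM), and the relation of Cat to these members was not tested. The most abundant gene of the list in the uterus, the glutathione peroxidase Gpx1, differed by 0.53 and was not called.

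The patterns most like those of the called members were also listed, without a test. For Aqp7 they were Acsl1, Pxdc1 and Cdsn (smaller r 0.955, 0.955 and 0.951), of which Acsl1 activates fatty acids for storage. For Aqp3, over the 7 uteri only, they were Trp53inp2, Art3 and Kpna2 (r 0.992, 0.987 and 0.983). For Aqp11 they were Wnk3, Fam129c and Desi1 (smaller r 0.779, 0.779 and 0.763). In the uterus Aqp3 and Aqp7 were highest in the same OT libraries, OT1 first and OT3 second. Among the 25 pairs of members, their r was 0.932 (adjusted permutation p = 0.0198) and their rho 0.75 (adjusted p = 0.276). Aqp3 and Aqp11 ran opposite there, with r = -0.795 (adjusted permutation p = 0.105) and rho = -0.964 (adjusted p = 0.0347). Each of these members was called between OC and OT uteri, so both pairs include that difference. The r values of likeness span OC and OT libraries together, so that they include the difference between the groups.

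Uterus and ovary of the same mice were then compared to ask where each aquaporin is expressed. A gene was called here if its fold was 2 or more with a limma adjusted p under 0.05. This fit did not pair the tissues of a mouse, while the sign-flip test below did. With the mouse as a block, the same 5 members were called. The limma adjusted p was then 0.00127 for Aqp8 and 0.0146 for Aqp11. Of 6 members tested, 5 were called higher in the uterus and 0 lower, against 10% of 14557 tested genes called higher and 9.59% lower. Aqp1 was 2.60-fold higher in the uterus (log2 difference 1.38, standard error 0.14, limma adjusted p = 3.44e-06), and every uterus lay above every ovary, as for 11.5% of tested genes. Aqp5 was 4.90-fold higher (2.29, standard error 0.53, adjusted p = 0.00266) and Aqp8 6.17-fold higher (2.63, standard error 0.90, adjusted p = 0.0254). Aqp11 was 2.71-fold higher (1.44, standard error 0.38, adjusted p = 0.00609). Each of these 4 was higher in the uterus in 7 of 7 mice, with an exact sign-flip permutation p of 0.0156, the smallest that 7 mice allow. Only for Aqp1 did the tissues not overlap. The endothelial marker sum was lower in the uterus than in the ovary of every mouse. Red blood cell genes summed to 175.8 to 695 FPKM in ovaries and 137.1 to 1233 FPKM in uteri. Smooth muscle markers, 8 genes, summed to 921.7 to 2832 FPKM in ovaries and 7947 to 14810 FPKM in uteri. The part of these cells in the tissue difference of Aqp1 was not tested.

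Aqp3 was called higher in the uterus as well (log2 difference 2.39, standard error 0.78, adjusted p = 0.0194) and was higher in 6 of 7 mice (exact permutation p = 0.0312), being listed at 0 in both tissues of OC1. It averaged 0.131 FPKM in ovaries and passed the filter only through the OT uteri, so that it had to differ, and the log2 difference was 1.26 with a pseudocount of 1 and 3.19 with 0.01. With no filter, Aqp4 was called lower in the uterus (-1.39, adjusted p = 0.00336). Aqp7 was higher in 4 of 7 mice and was not called (0.80, 95% interval -0.47 to 2.08). In OC mice alone 3 members were called, Aqp1, Aqp5 and Aqp11, while Aqp3 differed by 1.06 (adjusted p = 0.513), Aqp8 by 2.47 (adjusted p = 0.176) and Aqp7 by -0.13 (adjusted p = 0.928). In the unpaired fit, Aqp8 lost its call without OC2 (adjusted p = 0.0593), OC3 (0.0780) or OT2 (0.0672). Aqp3 lost its call without OC2 (adjusted p = 0.0561), OC3 (0.0896) or OT3 (0.0556). Aqp11 fell under the fold of 2 without OC1 (log2 difference 0.90). The squamous and urothelial marker values given beside Aqp3, and the uterus marker values given beside Aqp8, hold for this comparison too.

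**Figure D5:**
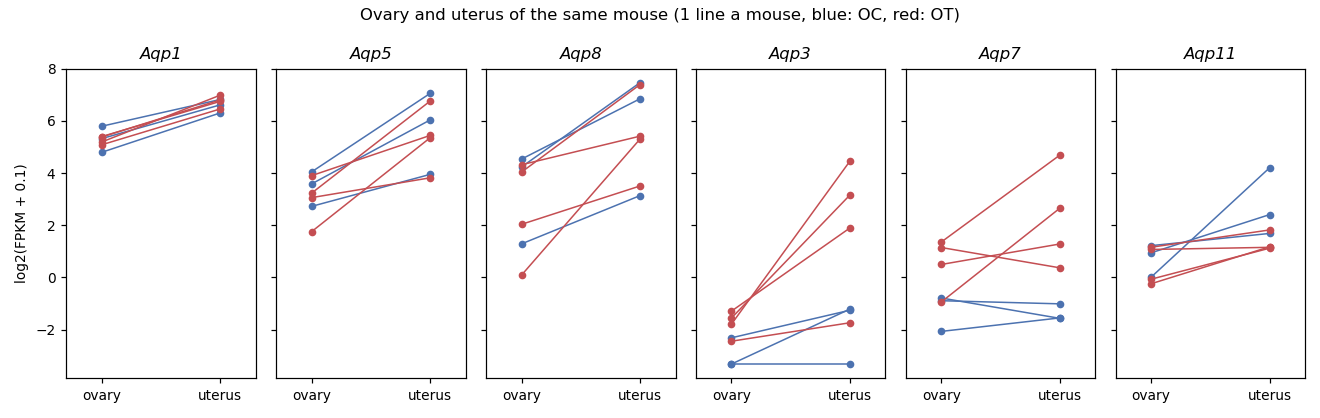
Level of the 6 tested aquaporins in ovary and uterus of each mouse on the log2(FPKM + 0.1) scale, 1 line per mouse, blue for OC and red for OT. For Aqp1, Aqp5, Aqp8 and Aqp11 all 7 lines rise from ovary to uterus, while for Aqp7 4 of 7 do.

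Whether OT and OC differed by another amount in the uterus than in the ovary was tested directly in a fit of all 14 libraries. None of the 6 members tested reached an adjusted p under 0.05, nor did any of 14557 genes (0%), while 746 genes had an unadjusted p under 0.05. The difference of log2 fold changes was 2.66 for Aqp3 (95% interval -0.68 to 6.01), 1.86 for Aqp7 (-0.68 to 4.41) and -1.21 for Aqp11 (-2.84 to 0.43), each with a limma adjusted p of 0.844. Aqp3 passed the filter only through the OT uteri, which favoured a positive difference. Its difference was 2.08 with a pseudocount of 1 and 1.93 with 0.01. The call of Aqp11 in the uterus and not in the ovary does not show that its change differed between the tissues, nor does the larger Aqp7 change in the uterus.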

How the data were processed

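Ovary and uterus RNA of 3 OC and 4 OT mice was sequenced from stranded, rRNA-depleted libraries. The authors trimmed the reads with Skewer, mapped them to mm10 with STAR 2.5 and deposited 1 table of FPKM per gene from Cufflinks 2.2.1, set to count by strand, for the 14 libraries. The reads were not used here, so depth is unknown, and no interval for counting error is given. From the spacing of low values, depth was roughly 0.856 to 1.23 times that of the OC1 ovary. Each estimate is the commonest ratio among low genes and rests on few of them, 5 of 62 in the OT3 uterus.

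All 21853 gene identifiers matched GENCODE M21, which gave symbols and positions on GRCm38. Samples were grouped by their titles. Values were taken as log2(FPKM + 0.1), without further scaling, and genes averaging 0.5 FPKM or more over the libraries compared were fitted with limma 3.58.1 (lmFit, eBayes with trend, R 4.3.3), with Benjamini-Hochberg adjustment over all genes tested. OT was compared with OC in each tissue at the study's cutoffs, a fold of 2 and an unadjusted p of 0.05. The uterus was compared with the ovary, and the response between tissues, in 1 fit of 14 libraries that did not pair the tissues of a mouse. Cuffdiff, the study's tool, needs the reads and was not run. The steps were tested on simulated data. Exact permutation tests, two-sided as 2 times the smaller tail, and correlations were run in Python 3.11.15 with scipy 1.17.1.

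Ovary and uterus libraries of the same name come from the same mouse. Their deviations from the group means correlated at 0.074 to 0.254 in the 7 mice, and a fit with the mouse as a block changed no call of an aquaporin. OC and OT libraries with the same number are different mice.

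The members, gene lists and tests were chosen with earlier results of these data known. From each list, the called genes and the 2 with the highest mean were named, apart from items not reported here. Prss28, Prss29, Sox17, Epcam, Krt7, Foxa2, Ucp1, Upk2, Upk3a, Inha, Esr1, Pgr, Gk and Dmd were singled out beyond that rule or after their values were seen. Alternatives changed the pseudocount, the filter, the scaling and the variance prior, added blocks, fitted the tissues jointly and left out each library or mouse. Motifs were searched in RefSeq promoter windows, which held 7 of the 8 members.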

Additional observations from a re-analysis of the deposited data

Results flagged for a closer look

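Aqp11 in the OT uteri had 1 library far from the others. OT2 measured 3.43 FPKM against 2.08 to 2.16 FPKM in OT1, OT3 and OT4, so that its gap to the nearest library took up 0.940 of the group's range, above the 95% critical value of Dixon's test for 4 samples. The same check was made on 16 groups of 4 OT libraries, and chance flags about 1 in 20 groups.

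The values of Aqp4 differed from the OC mean in opposite directions in the tissues. Every OT ovary lay below the mean of the OC ovaries, and every OT uterus above the mean of the OC uteri, on the log2(FPKM + 0.1) scale, and the mean differences stood 2.01 apart. OT and OC overlapped in both tissues. Aqp4, at 0 to 1.00 FPKM over all 14 libraries, was under the filter, and with no filter limma gave this difference an unadjusted p of 0.00813 and an adjusted p of 0.859.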

How the results depend on the processing

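The calls of members moved with the processing as follows. In the ovary, the 1 member called (Aqp7) became 0 with a pseudocount of 1 or a fit of all 14 libraries, and 2 without a filter, which adds Aqp3. In the uterus, the 3 called became 1 (Aqp7) in the replicate block, which drops OT4 for want of a partner, and 4 without a filter, which adds Aqp4. Between the tissues, the 5 called became 3 in OC mice only and 6 without a filter, which adds Aqp4, lower in the uterus. Leaving out each replicate in turn gave 0 to 1 members in the ovary, 1 to 3 in the uterus and 3 to 5 between the tissues. Aqp7 in the uterus, Aqp1 and Aqp5 between the tissues were called in every alternative run. Reversed signs were found only in values without a call. Without 1 library, the log2 fold change in the ovary was -0.29 to 0.21 for Aqp1, -1.77 to 0.11 for Aqp8 and -0.60 to 0.00382 for Aqp11. In the uterus it was -1.20 to 0.35 for Aqp5 and -1.75 to 0.41 for Aqp8. The difference in response was -0.37 to 0.66 for Aqp5 and -0.49 to 0.88 for Aqp8. Aqp7 between the tissues was -0.13 in OC mice only. Of the values of single members, 316 kept direction and call, 20 lost a call and 14 changed sign, and the cause was not tested. Same-numbered OC and OT libraries share only a number, with deviations correlated at 0.0219 to 0.335 in the ovary and -0.0112 to 0.0761 in the uterus. Depth is unknown, so that the precision of values under 0.5 FPKM, as in Aqp4 and Aqp9, is not known.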
